A study of Mus musculus with 8 samples.

Results

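mmu-miR-205-5p and mmu-miR-203-3p are microRNAs (miRNAs) best known from keratinocytes, the cells of the epidermis. Here they are followed in the culture medium of mouse muscle cells. They are 2 of the 1881 mouse miRNAs on the array, found by name, and they were chosen by their measured signals on these same arrays. Their group differences are therefore given as a description, with no test.

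The medium came from transwell co-cultures of primary myocytes from the hind limb muscle of newborn mice (age 1 to 3 days, labelled male), in which cells in a bottom chamber and cells on an insert shared medium across a porous membrane. All mice carried a human SOD1 transgene. The G93A mice (strain B6SJL(Tg-SOD1*G93A)1Gur/J) express the mutant that models amyotrophic lateral sclerosis, and the WT mice (strain B6SJL(Tg-SOD1)2Gur/J) overexpress wild-type human SOD1, so no group was without the transgene. Written as bottom chamber/insert, the groups were G93A/G93A (n = 3), G93A/WT (n = 3) and WT/WT (n = 2), with 1 Cy3-labelled Agilent array per sample and no treatment. Both chambers shared 1 medium, so an array cannot tell which chamber released a miRNA, and medium without cells was not analysed here. Medium was taken at 2 days in vitro. Cultures first grew in 10% foetal bovine serum and then in 2% horse serum, the medium collected is not named in the labels, and cattle or horse miRNAs with an identical sequence would be read as mouse.

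Both miRNAs act as short guides that lower the output of messenger RNAs matching their seed, bases 2 to 8. miR-205-5p is abundant in the basal layer of stratified epithelia, where it sustains progenitor growth, and it represses ZEB1 and ZEB2, which drive loss of the epithelial state. miR-203-3p is switched on as keratinocytes leave the basal layer and represses p63, a transcription factor of epithelial progenitors. Neither is regarded as a muscle miRNA.

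The mature sequences are shown because the seed and the 3' end decide what each miRNA targets and what its probe can capture. They are from RefSeq, build GRCm38.p6, 5' to 3', with the seed in capitals. miR-205-5p lies in the gene Mir205 on the minus strand at chr1:193507503-193507524, and miR-203-3p lies in Mir203 on the plus strand at chr12:112130927-112130948.
miR-205-5p: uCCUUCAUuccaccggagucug
miR-203-3p: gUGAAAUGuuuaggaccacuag
miR-205-3p, the other arm of the Mir205 hairpin: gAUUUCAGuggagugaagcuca
miR-203-5p, the other arm of the Mir203 hairpin: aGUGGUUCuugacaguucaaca
The hairpin of Mir205 has 68 bases and that of Mir203 has 76. The capitals in the hairpins below mark the mature strand that was detected, which sits on the 5' side in Mir205 and on the 3' side in Mir203.
Mir205 hairpin: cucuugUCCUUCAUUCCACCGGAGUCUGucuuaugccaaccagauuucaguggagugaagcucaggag
Mir203 hairpin: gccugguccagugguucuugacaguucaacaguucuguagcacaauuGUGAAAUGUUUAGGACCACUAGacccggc

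The members do not share a seed, a chromosome or a hairpin arm. Both mature strands have 22 bases, with 54.5% G and C in miR-205-5p and 40.9% in miR-203-3p. Among 1679 mature mouse miRNAs in RefSeq, 0 others carry the seed of miR-205-5p and 0 others that of miR-203-3p. Of 1607 other array miRNAs with a RefSeq sequence, the one with the longest stretch in common with miR-205-5p is miR-7033-5p, which shares 8 bases (GGAGUCUG, the 3' end of miR-205-5p). miR-7033-5p was detected on all 8 arrays, with mean log2 signals of 6.07 in G93A/G93A, 5.96 in G93A/WT and 6.18 in WT/WT, and it passed in none of the 3 comparisons (limma adjusted p = 0.594 and 0.514 when G93A/G93A was set against WT/WT and against G93A/WT, and 0.277 when G93A/WT was set against WT/WT). For miR-203-3p it is miR-421-5p, which also shares 8 bases and was detected on 0 arrays. A miRNA from the strand opposite Mir203, miR-203b-5p, is a perfect complement to miR-203-3p over its 20 bases, and was not analysed here.

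The labelled cell type was checked on miR-206-3p, a miRNA specific to skeletal muscle, with log2 signals of 11.30 ± 0.03 in G93A/G93A, 11.33 ± 0.19 in G93A/WT (SD, n = 3 each) and 11.57 ± 0.33 in WT/WT (SD, n = 2). Of 6 muscle miRNAs on the list, miR-206-3p, miR-1a-3p, miR-133a-3p and miR-133b-3p were detected on all 8 arrays, miR-499-5p on 1 and miR-208b-3p, known from the heart and slow muscle, on 0. Between 450 and 563 miRNAs were detected per array, and the G93A/WT arrays were the brightest, with scale factors of 0.616 to 0.970 against 1.01 to 1.36 in G93A/G93A and 1.18 to 1.49 in WT/WT. The scale factor is what each array's signals were multiplied by to put the arrays on 1 scale, so a small one marks a bright array. All arrays lay on 1 slide: the G93A/WT arrays and WT/WT 1 in row 1, the G93A/G93A arrays and WT/WT 2 in row 2.

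miR-205-5p was at or near the detection limit in medium of mutant cells alone. In G93A/G93A medium it was not detected on array 1 (listed at 0.1) and gave deposited signals of 4.09 and 4.87 units on arrays 2 and 3. In G93A/WT medium it gave 49.9, 105 and 68.4 units, and in WT/WT medium 88.5 and 96.3 units. The 3 G93A/G93A arrays lay far below the other 5, on values by which the member was chosen. G93A/WT and WT/WT overlapped before scaling because G93A/WT 2, the brightest array, exceeded both WT/WT arrays. In medium, fewer releasing cells and less release per cell cannot be told apart. The deposited error was 22.7% to 25.9% of the signal on the 2 detecting G93A/G93A arrays, against 7.67% to 8.10% in G93A/WT and 8.04% to 9.75% in WT/WT.

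miR-203-3p had the same order of groups. It was detected on 0 of 3 G93A/G93A arrays. The G93A/WT arrays gave deposited signals of 3.92, 12.8 and 7.55 units and the WT/WT arrays 10.7 and 9.42 units, with deposited errors of 13.6% to 27.0% of the signal in G93A/WT and at most 15.1% in WT/WT. Here too G93A/WT 2 exceeded both WT/WT arrays before scaling. A detected flag in these files corresponded on every array to a signal above 3 times its error, so the dimmest value of a member, 3.92 units on G93A/WT 1 at 3.71 times its error, was close to the limit.

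**Figure D1:**
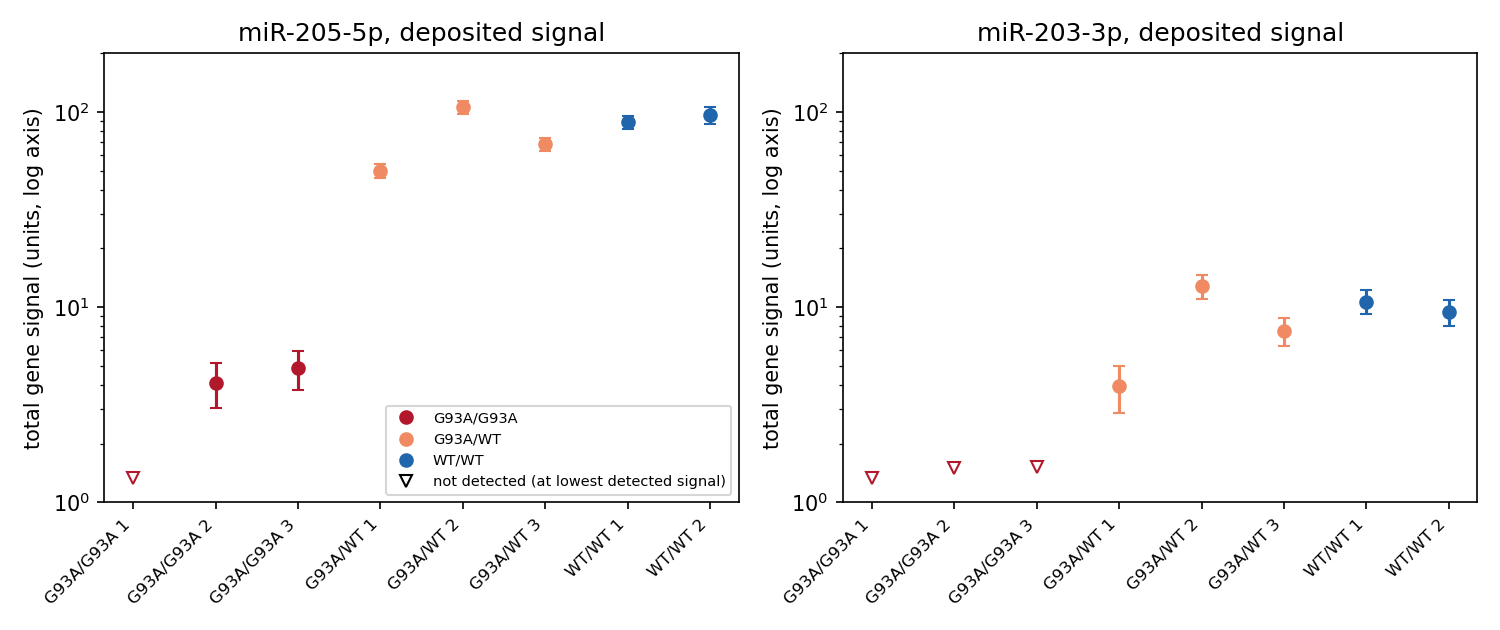
Deposited total gene signal (units, log axis) of miR-205-5p and miR-203-3p on each of the 8 arrays, with the deposited error as bars. Open triangles mark arrays without detection, drawn at that array's lowest detected signal of any miRNA. The G93A/G93A arrays are the lowest in both panels, and G93A/WT 2 is the highest in both.

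After scaling, miR-205-5p was lowest in G93A/G93A, higher in G93A/WT and highest in WT/WT, an order given as a description only. Its log2 scaled signals were 0.66 (the floor, an array without detection), 2.48 and 2.30 in G93A/G93A, 5.60, 6.02 and 5.75 in G93A/WT, and 7.05 and 6.82 in WT/WT. The group means were 1.81 ± 1.00 in G93A/G93A, 5.79 ± 0.22 in G93A/WT (SD, n = 3 each) and 6.94 ± 0.16 in WT/WT (SD, n = 2). In log2 units, G93A/G93A minus WT/WT was −5.12, G93A/G93A minus G93A/WT was −3.98 and G93A/WT minus WT/WT was −1.15. These comparisons share arrays and are not independent of each other. Of all 538 tested miRNAs 8.55% passed in the first, 10.6% in the second and 3.9% in the last (limma, adjusted p under 0.05), which is given as background only, since the members were chosen on these contrasts. Without G93A/G93A 1, the array at the floor, the first difference was −4.53. On the linear scale the 2 detecting G93A/G93A arrays stood at 4.54% and 4.01% of the WT/WT mean, and the G93A/WT arrays averaged 45.3% ± 6.89 of it (SD, n = 3).

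The scaled signals of miR-203-3p had the same order. All 3 G93A/G93A arrays were at the floor of 0.66, the G93A/WT arrays were at 1.93, 2.98 and 2.57 (mean 2.49 ± 0.53, SD, n = 3) and the WT/WT arrays at 4.00 and 3.47 (mean 3.73 ± 0.37, SD, n = 2). The highest G93A/WT array lay 0.49 below the lowest WT/WT array, which is less than the SD of the G93A/WT arrays. Before scaling those groups overlapped for both members, so this separation rests on the scaling, without which the log2 difference of means was −0.38 for miR-205-5p and −0.47 for miR-203-3p. In G93A/G93A medium miR-203-3p has only an upper limit, and the size of its decrease depends on that limit. Its lowest error on a detecting array puts its own detection limit (3 times the error) at 3.18 deposited units. Scaled on the G93A/G93A arrays, that limit lies 3.53-fold below the WT/WT mean and 1.50-fold below the G93A/WT mean. The lowest signal with which any miRNA was detected on those arrays lies 7.73-fold below the WT/WT mean and 3.27-fold below the G93A/WT mean, so folds taken from it, like the log2 differences at the floor, would overstate what the detection of miR-203-3p itself supports. Between G93A/WT and WT/WT the log2 difference was −1.24, and the G93A/WT arrays averaged 43.5% ± 15.1 of the WT/WT mean (SD, n = 3).

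**Figure D2:**
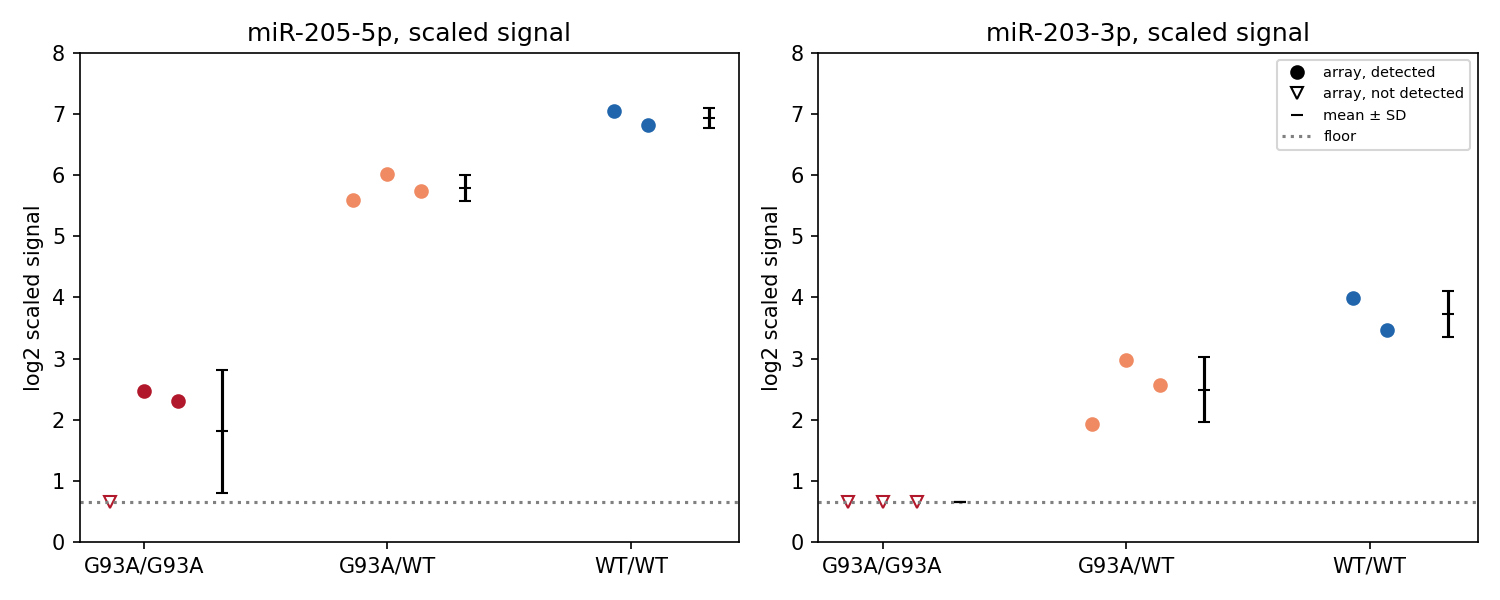
Log2 scaled signal of miR-205-5p and miR-203-3p by group. Filled points are arrays with detection, open triangles arrays without it, drawn at the floor (dotted line), and black bars the mean ± SD. The means of miR-205-5p are 1.81 in G93A/G93A, 5.79 in G93A/WT and 6.94 in WT/WT, and those of miR-203-3p 0.66 in G93A/G93A, 2.49 in G93A/WT and 3.73 in WT/WT.

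Within G93A/WT both members ranked the arrays alike, with array 2 highest, array 3 next and array 1 lowest, before and after scaling. The arrays as a whole had the same order of brightness, with 563, 520 and 497 miRNAs detected on arrays 2, 3 and 1. In the authors' processed values array 1 was the highest of the G93A/WT arrays for both members. Slide position was not balanced over the groups. Within row 2, which holds G93A/G93A and 1 WT/WT array, the log2 difference was −5.01 for miR-205-5p and −2.81 for miR-203-3p. Within row 1, which holds G93A/WT and the other WT/WT array, it was −1.26 and −1.50. G93A/G93A and G93A/WT shared no row. With the row as a block, which links them through 1 WT/WT array each, their difference was −3.75 for miR-205-5p and −1.31 for miR-203-3p.

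The opposite arms of the same hairpins gave no signal. miR-205-3p and miR-203-5p were each detected on 0 of 8 arrays, so no arm could be compared between groups.

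The tested miRNA whose profile was nearest to that of miR-205-5p was miR-203-3p, with a root mean square difference of 1.15 over the 8 arrays after each profile was centred on its own mean (log2 units), followed by miR-429-3p (1.23), miR-200b-3p (1.46), miR-181a-5p (1.52) and miR-17-3p (1.60). The median over all tested miRNAs was 2.23. For miR-203-3p the nearest was miR-429-3p (0.25), ahead of miR-181a-5p (0.56), miR-200b-3p (0.57), miR-212-3p (0.65) and miR-17-3p (0.67), with a median of 1.26. miR-205-5p was not among these 5. Apart from miR-205-5p, all the miRNAs named here were detected on the same 5 arrays, those of G93A/WT and WT/WT. These distances depend on the floor, at which all but miR-205-5p lie on every G93A/G93A array. When each profile was also divided by its own SD, miR-181a-5p (0.24) came first for miR-205-5p. On that measure miR-203-3p, miR-429-3p and miR-200b-3p were no longer among its 5 nearest, so the nearness of miR-203-3p to miR-205-5p depends on the measure. For miR-203-3p, miR-429-3p (0.18) remained first.

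**Figure D3:**
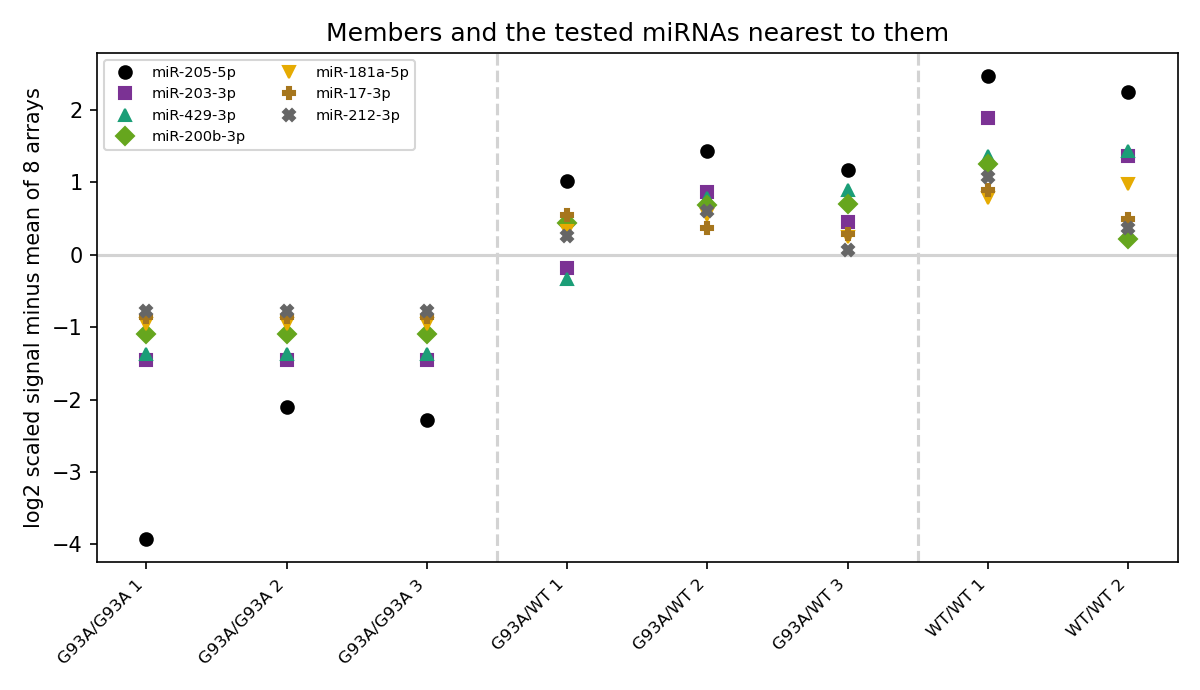
Log2 scaled signal of both members and of the 5 other miRNAs nearest to either, each minus its own mean over the 8 arrays, on the y axis, by array on the x axis. All 7 are lowest on the G93A/G93A arrays, where only miR-205-5p is above the floor, on arrays 2 and 3.

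The other miRNAs of epithelia were read from 2 lists that leave the members out. The miR-200 family maintains the epithelial state by repressing ZEB1 and ZEB2, the same factors that miR-205-5p represses. Its members below share a seed, in capitals, that differs from both seeds above (RefSeq, GRCm38.p6; miR-429-3p and miR-200b-3p are encoded on chromosome 4 and miR-200c-3p on chromosome 6).
miR-429-3p: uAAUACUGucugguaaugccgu
miR-200b-3p: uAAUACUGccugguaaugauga
miR-200c-3p: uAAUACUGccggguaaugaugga

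These 3 were detected on all 5 arrays of G93A/WT and WT/WT and on 0 of 3 arrays of G93A/G93A. miR-429-3p gave deposited signals of 3.34, 11.4 and 9.64 units in G93A/WT and 7.0 and 9.33 units in WT/WT. miR-200b-3p gave 4.72, 8.83 and 6.99 units in G93A/WT and 5.39 and 3.32 units in WT/WT. For miR-200c-3p the values were 3.75, 5.10 and 4.41 units in G93A/WT and 3.66 and 3.27 units in WT/WT. The WT/WT mean lay 2.87-fold above the own detection limit of miR-429-3p on the G93A/G93A arrays, 1.64-fold above that of miR-200b-3p and 1.37-fold above that of miR-200c-3p. The G93A/WT mean lay 1.49-fold, 1.51-fold and 1.01-fold above the same limits, so for miR-200c-3p the difference from G93A/WT was not measurable. All 3 passed limma in both comparisons, but they entered the fit only through the groups in which they were detected, and their G93A/G93A values are 1 floor with no spread. At 2 times the floor 0 of 3 passed against G93A/WT (limma adjusted p = 0.160, 0.137 and 0.584) and miR-429-3p alone passed against WT/WT. With quantile normalization miR-429-3p (limma adjusted p = 0.139) and miR-200c-3p (0.272) did not pass against G93A/WT. These passes are therefore given as counts of the fit and not as evidence of a decrease.

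Of the 14 miRNAs on the list of other epithelial families, 5 were tested and 9 were detected on 0 arrays, among them miR-141-3p and miR-200a-3p of the same family, miR-182-5p, miR-183-5p and miR-96-5p, known from sensory epithelia, and miR-375-3p, miR-192-5p, miR-194-5p and miR-215-5p, known from glandular or gut epithelia. In G93A/G93A against WT/WT those 3 of the 5 passed as lower, 0 as higher and 2 did not pass. miR-200a-5p, the other arm of an undetected strand, was undetected in WT/WT, lay at a floor-dependent 1.08 in that comparison and did not pass (limma adjusted p = 0.162). Against G93A/WT the same 3 of 5 passed as lower and 0 as higher, and in G93A/WT against WT/WT 0 of 5 passed in limma (3 below 0.05 before adjustment).

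Of 19 miRNAs with described roles in skin and keratinocytes, 16 were tested, and many of them are abundant in other cells too. Of these, miR-125b-5p passed in G93A/G93A against WT/WT, where it was lower. It holds skin stem cells undifferentiated and also restrains myoblast differentiation. Its log2 signals were 9.09 ± 0.10 in G93A/G93A (SD, n = 3) and 9.88 ± 0.06 in WT/WT (SD, n = 2), a difference of −0.79 ± 0.11 (SE, limma adjusted p = 0.00929). miR-125b-5p did not pass with the slide row as a block (limma adjusted p = 0.0725) or without scaling (0.489). Without WT/WT 1 its difference was −0.82 and without WT/WT 2 it was −0.75. These are sizes only and no support for the call, since each leaves 1 WT/WT array. The other 15 of the list did not pass. The median of the list was −0.37, against −0.01 over all 538 tested miRNAs. Those with the highest signals were miR-21a-5p (−0.50, limma adjusted p = 0.194), miR-130a-3p (−0.31, 0.301) and miR-24-3p, which promotes keratinocyte differentiation (−0.37, 0.108). Against G93A/WT 0 of 16 passed in limma and 8 were below 0.05 before adjustment, as were 173 of all 538 (32.2%). The differences of 16 of 16 were below zero (median −0.34), against 312 of all 538 (58.0%, median −0.10). This was not particular to the list. Of the fibroblast list below, 5 of 5 were below zero (median −0.62), 4 of them under 0.05 before adjustment. So were 5 of 5 of the other epithelial families, 3 of 4 muscle, 2 of 3 erythroid and 1 of 2 leukocyte and endothelial miRNAs in sign. In G93A/G93A against WT/WT 13 of the 16 were below zero (50.6% of all), and in G93A/WT against WT/WT 9 (44.1% of all). In G93A/WT against WT/WT 0 of 16 passed in limma and 2 were below 0.05 before adjustment, as were 132 of all 538 (24.5%), with medians of −0.06 for the list and 0.04 for all. miR-31-3p, miR-135b-5p and miR-191-5p of this list were detected on 0 arrays.

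Together 4 of 21 tested miRNAs on both lists passed in G93A/G93A against WT/WT, all of them lower, where 8.55% of all 538 passed (46 miRNAs, in either direction). Against G93A/WT it was 3 of 21, where 10.6% of all passed (57 miRNAs), and in G93A/WT against WT/WT 0 of 21, where 3.9% of all passed (21 miRNAs). Of these list calls, 3 in the first comparison and 3 in the second are miR-429-3p, miR-200b-3p and miR-200c-3p, whose selection by the filter is described above, so the shares cannot be set against each other. The 46 miRNAs of the first comparison also include both members, which were chosen on these contrasts, and this is no test of them. Among miRNAs detected on all arrays 1 of 13 on the lists passed in the first comparison, where 6.86% of 423 passed, 1 of 13 in the second, where 10.4% passed, and 0 of 13 in the last (limma, 1 below 0.05 before adjustment), where 0 of 423 passed (103 before adjustment). When the fit held the slide row as a block, 2 of the 21 passed in the first comparison, miR-200b-3p (limma adjusted p = 0.0166) and miR-200c-3p (0.0139), and 0 in the second (6 at an unadjusted p under 0.05). Without WT/WT 1 the first count was 2, and without G93A/G93A 3 or G93A/WT 1 the second was 7. In the last comparison 1 passed without G93A/G93A 3 and 3 without G93A/WT 1.

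**Figure D4:**
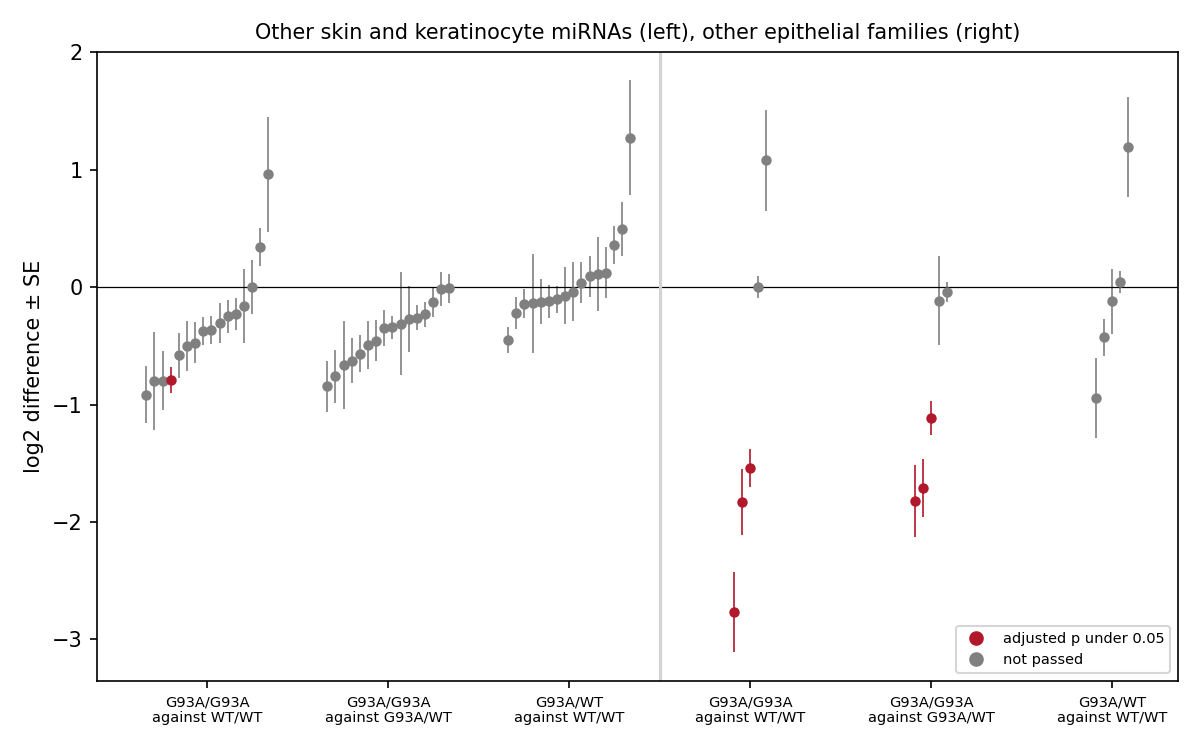
Log2 difference ± SE (y axis) of the 16 tested skin and keratinocyte miRNAs (left) and the 5 tested miRNAs of other epithelial families (right) in each comparison, members left out. Red points passed limma at an adjusted p under 0.05: 4 in G93A/G93A against WT/WT, 3 in G93A/G93A against G93A/WT and 0 in G93A/WT against WT/WT. The 3 red points on the right in each of the first 2 comparisons are miRNAs at the floor on every G93A/G93A array.

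The summed levels of the marker lists were as follows, and their part in the results was not tested. The summed scaled signal of the skin and keratinocyte list ran from 1893 to 2330 units in G93A/G93A, 2696 to 2875 in G93A/WT and 2969 to 3100 in WT/WT. Most of this sum came from miR-125b-5p, miR-21a-5p, miR-130a-3p and miR-24-3p, with means of 546, 493, 426 and 327 units in G93A/G93A. It is therefore not a measure of keratinocyte miRNAs alone. That of the other epithelial families ran from 2.83 to 4.58 units in G93A/G93A, 15.3 to 22.8 in G93A/WT and 18.7 to 24.0 in WT/WT. Undetected miRNAs add nothing to these sums. In G93A/G93A the sum of this list is miR-200a-5p alone, which was undetected in WT/WT, so these sums do not give the size of a decrease. Muscle miRNAs overlapped between groups, at 4258 to 5265 units in G93A/G93A, 4514 to 5468 in G93A/WT and 4703 to 5401 in WT/WT, and 0 of 4 tested passed in limma in any comparison (0 below 0.05 before adjustment). Of 5 tested fibroblast miRNAs miR-199a-5p passed and was lower in G93A/G93A medium than in that of WT/WT (−0.85 ± 0.17, SE, limma adjusted p = 0.0291), and the list's sums were 328 to 502 units in G93A/G93A, 494 to 660.5 in G93A/WT and 501 to 531 in WT/WT. Erythroid miRNAs summed to 1104 to 1572 units in G93A/G93A, 1436 to 1624 in G93A/WT and 1209 to 1265 in WT/WT, with 0 of 3 tested passing in limma (1 below 0.05 before adjustment, in G93A/WT against WT/WT) and miR-144-3p detected on 0 arrays. Of the 2 tested leukocyte and endothelial miRNAs, miR-223-3p was higher in G93A/G93A than in WT/WT (0.52 ± 0.12, SE, limma adjusted p = 0.0433). The other, miR-126a-3p, went the opposite way (−0.23 ± 0.14, SE) and did not pass (limma adjusted p = 0.346). The sums of this list were 233 to 269.9 units in G93A/G93A, 229.5 to 269 in G93A/WT and 224 to 227 in WT/WT. Its miR-142a-3p and miR-150-5p were detected on 0 arrays.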

How the data were processed

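The 8 1-colour Agilent mouse miRNA arrays were analysed. Per the file headers, the authors deposited for each array an intensity per miRNA (total gene signal, linear), its error and a detected flag, another value of 0 or 1. All undetected miRNAs were listed at 0.1. Neither scanner software nor background correction is stated in the labels or headers. A deposited table of the authors' processed intensity (492 mouse miRNAs, normalization not given) served as an alternative.

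Each array was scaled on its 75th percentile over the 423 miRNAs detected on all 8 arrays. Undetected values were set to a floor of 1.58 units (log2 0.66) before log2 was taken. This floor is the lowest scaled signal with detection on each array, as a median of the arrays. The 538 miRNAs detected on at least 2 arrays were fitted in R 4.3.3 with limma 3.58.1, sharing 1 spread over the 3 groups. P-values were 2-sided, adjusted over all 538 after Benjamini and Hochberg and read at 0.05. Both members were in this set, miR-203-3p only through the groups in which it was detected. The fit was tested on simulated data. With 2 or 3 arrays per group, their number limits the precision. Samples are labelled biological replicates without naming separate animals or culture days, so p-values measure the spread between these samples, which may be technical.

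RefSeq sequences were matched by name (1608 of 1881 array miRNAs). The members and lists were chosen with earlier results of these data known. Named were both members, their other arms, list miRNAs that passed or were brightest, and the 5 nearest profiles per member. The miRNAs with the longest shared sequence were added by sequence. The called miRNAs of other marker lists, and miR-126a-3p beside miR-223-3p, were added after their values were seen. For miRNAs undetected on all arrays of a group, a limit of 3 times the miRNA's own lowest error was added after seeing the data. Alternatives changed the scaling, source, floor, filter, blocks and arrays.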

Additional observations from a re-analysis of the deposited data

How the results depend on the processing

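The members' log2 differences stayed below zero in all 3 comparisons under every alternative run (18, 17 and 18 for G93A/G93A against WT/WT, G93A/G93A against G93A/WT and G93A/WT against WT/WT). These signs are no test, since the members were chosen on these arrays and every alternative reuses them. For miR-203-3p, undetected on every G93A/G93A array, the floor or placeholder fixed the sign in the first 2 comparisons. Across them the range for miR-205-5p was −5.93 to −4.53, −4.78 to −3.41 and −1.26 to −0.38, and for miR-203-3p −5.42 to −2.08, −4.07 to −0.84 and −1.51 to −0.47. By construction, the miR-203-3p difference follows the floor: in G93A/G93A against WT/WT and G93A/G93A against G93A/WT it was −4.08 and −2.84 at 0.5 times the floor and −2.08 and −0.84 at 2 times the floor. The authors' values, in which undetected miRNAs stand at low placeholder levels (0.149 to 0.253 units for the members) that act as a lower floor, gave −5.93 and −4.78 for miR-205-5p and −5.42 and −4.07 for miR-203-3p in those comparisons. Without scaling miR-203-3p lay at −2.28 in G93A/G93A against G93A/WT and at −0.47 in G93A/WT against WT/WT, where miR-205-5p lay at −0.38. With the slide row as a block miR-203-3p lay at −1.31 in G93A/G93A against G93A/WT. Scaling on the 75th percentile over all 1881 miRNAs was not run, because on 3 arrays that percentile falls on undetected miRNAs, listed at 0.1, and the filter for detection on all arrays removes both members.

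Counts depended more on the processing, and apart from the floor, the filters and left-out arrays the cause was not tested. For G93A/G93A against WT/WT, G93A/G93A against G93A/WT and G93A/WT against WT/WT, no scaling gave 14, 149 and 130 calls in place of 46, 57 and 21, and 12 and 3 list calls in the last 2. The slide row block gave 7 and 0 limma calls (95 and 73 at an unadjusted p under 0.05; 2 and 0 list calls) in the first 2 comparisons, and within row 2 there were 9 in the first. miRNAs detected on all arrays gave 29 limma calls in the first and 0 in the last (103 at an unadjusted p under 0.05), with 1 list call in each of the first 2. In the last comparison 37 passed (1 on the lists) when detection on 1 array sufficed, 34 at 2 times the floor, and 5 with the authors' values. List calls were 2, 1 and 1 at 2 times the floor and 1 in the last comparison at 0.5 times the floor. Leaving out 1 array each gave 7 to 56, 37 to 121 and 7 to 61 calls, and 2 to 6, 3 to 7 and 0 to 3 list calls. The arrays that moved a count by over 1.5 times when left out were WT/WT 1 (7 in the first comparison, 7 in the last), WT/WT 2 (21 in the first), G93A/G93A 2 (21 in the first, 37 in the second), G93A/G93A 3 (121 in the second, 61 in the last), G93A/WT 1 (35 in the last) and G93A/WT 2 (12 in the last). Over their alternatives, the adjusted p for G93A/G93A against WT/WT ran from 6.42e-05 to 0.0613 for miR-429-3p, from 0.00134 to 0.138 for miR-200b-3p, from 0.000295 to 0.0876 for miR-200c-3p and from 0.0078 to 0.489 for miR-125b-5p, with every log2 difference below zero. Against G93A/WT it ran from 0.000228 to 0.255 for miR-429-3p, from 0.000792 to 0.247 for miR-200b-3p and from 0.000142 to 0.584 for miR-200c-3p.

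The labels give the groups the same replicate numbers but name no shared animal or day. Deviations of same-numbered arrays correlated at −0.35 to 0.21 over 7 pairs. With 2 or 3 arrays per group this cannot decide whether they shared an animal or day. Outside the replicate block the numbers were used only to name samples. With the replicate block 10, 37 and 8 miRNAs passed.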

Other observations

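The authors' processed values order the G93A/WT arrays differently from the array files. For miR-205-5p the authors' deposited table holds 77.9, 39.0 and 35.0 units on G93A/WT 1, 2 and 3, against 49.9, 105 and 68.4 units in the array files, and for miR-203-3p 5.17, 2.39 and 3.74 units, against 3.92, 12.8 and 7.55. The log2 ratio of the authors' value to the deposited signal on G93A/WT 1 was 0.64 for miR-205-5p and 0.40 for miR-203-3p, above all 423 miRNAs detected on every array, for which it ran from −1.02 to 0.09. On WT/WT 1 it was 0.11 and −0.38, below all 423 (0.19 to 1.52). A ratio that departed by over 0.5 from the array's median on at least 1 array with detection was seen for 69 of 69 table miRNAs undetected on some arrays and for 10 of 423 detected on every array (2.36%). The step from G93A/WT to WT/WT keeps its direction in both sources after scaling, while the order of arrays within G93A/WT does not. What produced this was not tested.

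By the labels' protocols 1.5 of every 4.0 cells seeded in a G93A/WT well were WT (37.5%), the insert holding 1.5 and the bottom chamber 2.5 (1e5 cells). The scaled G93A/WT signals stood at 39.4%, 52.9% and 43.8% of the WT/WT mean for miR-205-5p on arrays 1, 2 and 3 and at 28.2%, 58.4% and 43.9% for miR-203-3p. Before scaling the same arrays stood at 54.0%, 114% and 74.0% for miR-205-5p and at 39.1%, 127% and 75.2% for miR-203-3p. The relation to the number of cells was not tested.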
